A study of Homo sapiens with 6 samples.

Results

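The steroid hormone and estrogen-related receptors described here are 8 genes of the nuclear receptor family, chosen by symbol from the 55882 rows of a gene count table: ESR1 and ESR2 (estrogen receptors alpha and beta), ESRRA and ESRRG (estrogen-related receptors alpha and gamma), PGR (the progesterone receptor), NR3C1 (the glucocorticoid receptor), NR3C2 (the mineralocorticoid receptor) and VDR (the vitamin D receptor). All 8 had a row, and 7 of them were among the 22352 genes with enough counts to be tested; PGR was not. Polyadenylated RNA was sequenced from DIvA cells, which descend from U2OS, an established human osteosarcoma line, in 3 p53 WT and 3 p53 KO libraries. Both groups carried the DIvA transgene, the restriction enzyme AsiSI fused to an estrogen receptor hormone-binding domain, and both received 300 nM 4-hydroxytamoxifen (4-OHT) for 5 h in serum-supplemented DMEM. 4-OHT binds that domain, which lets the enzyme reach and cut nuclear DNA, and it is also a ligand of the endogenous estrogen receptors. No untreated cells were analysed here, so every level below is a level under 4-OHT. Neither the origin of the replicates (cultures or aliquots) nor the number of knockout clones is in the labels, so the p-values measure only the spread between these libraries, which may be technical.

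Nuclear receptors are transcription factors that share a zinc-finger DNA-binding domain and a pocket for a small lipophilic ligand. The steroid receptors ESR1, ESR2, PGR, NR3C1 and NR3C2 are held ready by HSP90 chaperone complexes and bind DNA as dimers once hormone arrives, VDR works as a partner of the retinoid X receptors, and the estrogen-related receptors have no established natural hormone and act with PGC-1 coactivators on genes of energy metabolism. In cells of the bone lineage, glucocorticoids, estrogens and vitamin D are known regulators of growth, matrix production and mineralisation. A count per gene cannot separate transcripts of the ESR1 gene from any reads of the fusion transgene that align to it, so the ESR1 values below are those of the row named ESR1, and the share of the transgene in them was not tested.

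The p53 targets CDKN1A, a cell cycle inhibitor, and MDM2, the ubiquitin ligase of p53, were lower in all p53 KO libraries than in all p53 WT libraries. CDKN1A fell from 542 ± 27.0 to 45.8 ± 3.68 CPM (counts scaled to library size, SD, n = 3), and the log2 fold change of MDM2, p53 KO over p53 WT as in all that follows, was -1.93 (SE 0.16). Total counts ranged from 20393909 to 79767519 per library. Markers of the mesenchymal and osteoblast lineage were abundant but lower in sum without p53. Over 12 genes they summed to 6992 to 7476 CPM in p53 WT and 3928 to 4344 CPM in p53 KO. Of 11 tested, 6 fell and 1 rose (63.6% against 26.5% of all genes, of which 12.1% were higher and 14.4% lower). VIM, vimentin, fell from 3333 to 1618 CPM, and COL1A1, a collagen I chain, rose from 688 to 930 CPM. SP7, an osteoblast transcription factor, had 0 counts in all 6 libraries. Of 10 luminal epithelial markers, the setting in which ESR1 is best known, all were tested. Of these, 1 (KRT8) rose and 0 fell (10% against 26.5% of all genes). Their summed level was 514 to 572 CPM in p53 WT and 601 to 728 CPM in p53 KO. The 8 leukocyte markers summed to 14.7 to 17.4 CPM in p53 WT and 10.9 to 15.0 CPM in p53 KO. Only 4 had enough counts to be tested. Of these, CORO1A rose (log2 fold change 1.61) and CD68 fell (-1.37), which is 50% against 26.5% of all genes. LYZ had 0 counts in all libraries. Endothelial markers were higher in sum without p53, at 20.6 to 21.7 CPM in p53 WT and 31.3 to 35.9 CPM in p53 KO over 6 genes. Of 5 tested, ROBO4 rose (0.83) and 0 fell (20% against 26.5% of all genes). CLDN5, another of the 5, went the other way at -1.05 but was not called (adjusted p = 0.153 by edgeR). All libraries came from the same cell line, so these marker levels are not read as amounts of separate cell types. In bulk RNA, a change in all cells and a change in some of them cannot be told apart. The part of these marker shifts in the receptor values was not tested.

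Per length, the receptors ranged from well expressed to barely detected. Levels between genes are compared as RPKM, which is CPM per kilobase of merged exon. ESRRA stood highest at a mean of 14.4 RPKM over the 6 libraries, followed by NR3C1 at 7.73 and VDR at 4.96 RPKM. NR3C2 followed at 0.874 RPKM, ESR2 at 0.169, ESR1 at 0.0623, ESRRG at 0.0291 and PGR at 0.0030 RPKM. From ESRRA down to ESR2, neighbours in this order had ranges over the 6 libraries that did not overlap, whereas ESR2 and ESR1, ESR1 and ESRRG, and ESRRG and PGR overlapped, with the higher mean on top in 5 of 6 libraries for each pair. Of all 48 human nuclear receptor genes, ESRRA ranked 3, NR3C1 9, VDR 12, NR3C2 25, ESR2 34, ESR1 38, ESRRG 41 and PGR 46, as the plot of nuclear receptor genes by level per length shows.

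**Figure D1:**
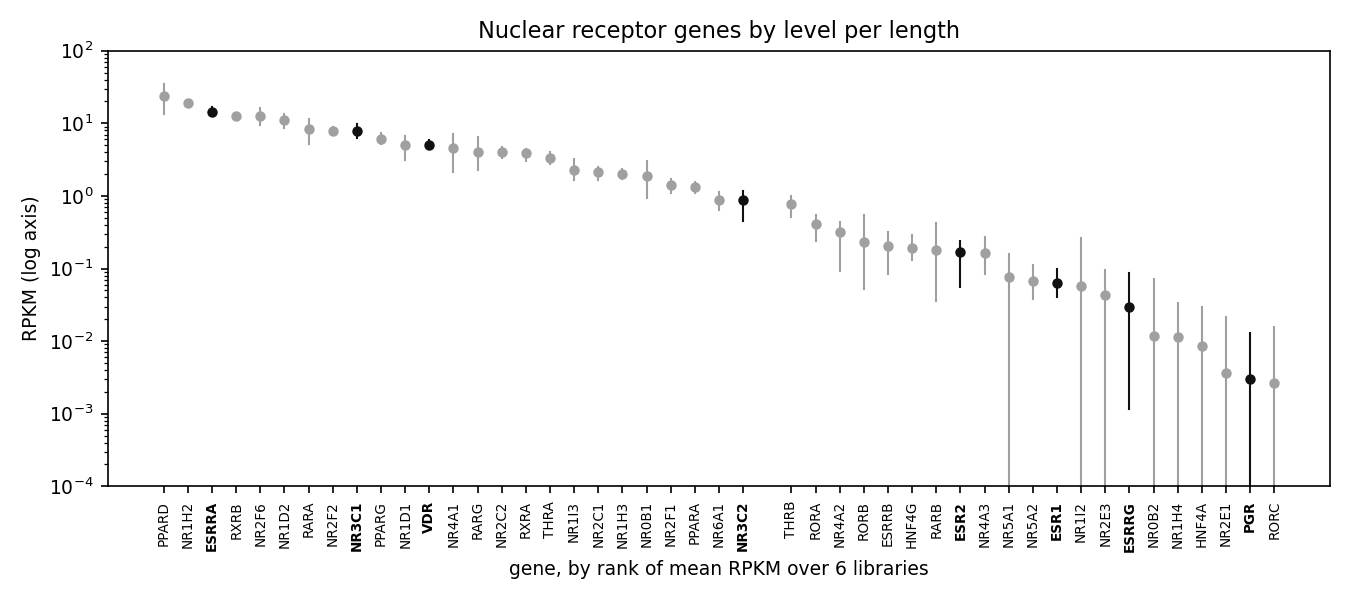
Nuclear receptor genes by rank of mean RPKM over the 6 libraries (log axis); points are means, lines run from the lowest to the highest library and reach the lower edge where a library had 0 counts, and RXRG, at 0 in all libraries, and 1 other gene are not drawn. The 8 receptors, in black and bold, run from ESRRA at 14.4 RPKM to PGR at 0.0030 RPKM.

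The summed RPKM of the 8 receptors was 27.0, 28.5 and 28.9 in p53 WT replicates 1 to 3 and 26.8, 29.1 and 29.2 in p53 KO replicates 1 to 3 (exact permutation test, two-sided, p = 0.7, where the smallest p that 3 against 3 libraries can give is 0.1). ESRRA made up 50.8% ± 3.94 of this sum in p53 WT and 51.2% ± 5.49 in p53 KO (SD, n = 3). NR3C1 made up 26.6% ± 1.86 and 28.2% ± 6.20, and VDR 17.8% ± 2.20 and 17.3% ± 0.790. ESR1 contributed between 0.149% and 0.368%, and ESR2 between 0.189% and 0.810%, in any library. By this measure the transcripts of these 8 receptors were mostly those of an orphan receptor, the glucocorticoid receptor and the vitamin D receptor, in both genotypes.

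The promoters of 3 receptors are printed: ESRRA, the most abundant per length, ESR2, among the low ones, and NR3C2, whose groups did not overlap. Each run is the 250 bases before the most upstream start in RefSeq (GRCh38.p14, another build than the one the authors used), 5′ to 3′ on the gene's strand, with GC boxes, GGGCGG on either strand, in capitals. The windows are chr11:64305274-64305523 on the plus strand for ESRRA, chr14:64338614-64338863 on the minus strand for ESR2 and chr4:148445323-148445572 on the minus strand for NR3C2.
ESRRA: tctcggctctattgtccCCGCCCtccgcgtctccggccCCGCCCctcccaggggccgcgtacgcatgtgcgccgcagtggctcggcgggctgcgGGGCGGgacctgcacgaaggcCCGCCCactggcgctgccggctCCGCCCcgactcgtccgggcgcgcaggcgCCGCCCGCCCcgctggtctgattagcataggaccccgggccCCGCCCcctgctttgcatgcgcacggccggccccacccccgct
ESR2: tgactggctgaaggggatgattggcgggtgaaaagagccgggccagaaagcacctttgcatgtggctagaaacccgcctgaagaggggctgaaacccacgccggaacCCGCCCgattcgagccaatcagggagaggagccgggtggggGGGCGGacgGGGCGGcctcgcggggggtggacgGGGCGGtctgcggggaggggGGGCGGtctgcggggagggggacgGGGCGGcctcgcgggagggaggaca
NR3C2: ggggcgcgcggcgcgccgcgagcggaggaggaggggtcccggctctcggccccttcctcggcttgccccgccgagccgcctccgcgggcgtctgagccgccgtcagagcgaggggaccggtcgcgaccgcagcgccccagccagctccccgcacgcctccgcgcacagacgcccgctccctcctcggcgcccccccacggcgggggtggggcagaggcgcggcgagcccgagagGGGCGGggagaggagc

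ESRRA had 8 GC boxes, counting overlapping ones, ESR2 had 6 and NR3C2 had 1. RefSeq gave 1 start for ESRRA, 4 for NR3C2, 5 for ESR2, 7 for NR3C1, 6 for ESR1, 8 for ESRRG and 3 for PGR, and no window for VDR. Among these 34 windows, 18 held a GC box, against 42.6% of 35116 windows of all genes. Windows of nearby starts of a gene overlap in places, as in ESR2, PGR and NR3C2. The same motif can therefore be counted in more than 1 window, and the windows are not separate observations. The hexamer AGGTCA, the core that many nuclear receptors bind, was in 4 windows, of ESR2 and ESRRG (12.1% of all windows), and TATAAA in 1, of NR3C1 (10.7%), both strands searched. The p53 response element, a pair of decamers with a spacer, was in 0 of the 34 windows and in 0.0256% of all windows. At so low a rate, 0 of 34 says little, and sites outside these windows were not searched. The authors' deposited table marks 124 of its 35987 genes as meeting a p53 cistrome. CDKN1A and MDM2 carry the mark and 0 of the 8 receptors do. With a mark this rare, 0 of 8 says little about the receptors. Which start these cells use was not measured.

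No receptor passed the test between p53 KO and p53 WT. By edgeR's quasi-likelihood test, 0 of 7 receptors passed an adjusted p of 0.05, where 26.5% of all 22352 genes tested did. An unadjusted p under 0.05 was reached by 1 receptor, NR3C2, and by 36.1% of all genes tested. DESeq2 and limma-voom each called 0 of 7 receptors, against 29.2% and 30.3% of all genes with an adjusted p. The groups did not overlap for 1 of 7 receptors, again NR3C2, against 40.8% of all genes tested. The median log2 fold change was 0.02 over the 7 receptors and 0.0052 over all genes tested. In the authors' deposited table, 0 of the 7 receptors with an adjusted p had one under 0.05, and PGR had no adjusted p.

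**Figure D2:**
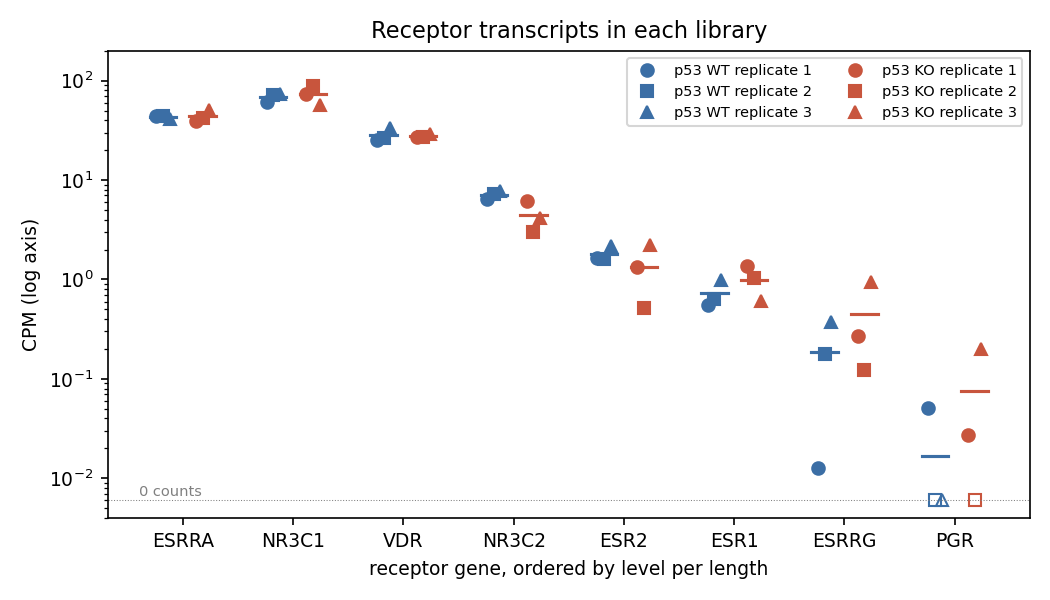
CPM of each receptor in each library on a log axis; blue marks p53 WT, red p53 KO, shapes the replicate numbers, bars the group means, and open symbols on the dotted line 0 counts. NR3C2 is the receptor whose 3 p53 KO libraries (3.00 to 6.12 CPM) all lie below the 3 p53 WT libraries (6.51 to 7.73 CPM).

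NR3C1, which binds cortisol and related glucocorticoids, was the receptor with the most reads. It had 60.5, 71.8 and 73.7 CPM in p53 WT replicates 1 to 3 and 72.9, 89.4 and 57.2 CPM in p53 KO replicates 1 to 3. The p53 KO libraries held both the highest and the lowest value, and the groups overlapped. The log2 fold change was 0.10 (SE 0.15, 95% interval -0.22 to 0.41, adjusted p = 0.698 by edgeR), so the interval ran from 0.860-fold to 1.33-fold.

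NR3C2, which binds aldosterone and also cortisol, showed the only separation of groups. It had 6.51, 7.20 and 7.73 CPM in p53 WT replicates 1 to 3, and 6.12, 3.00 and 4.11 CPM in p53 KO replicates 1 to 3. The p53 WT libraries lay close together (SD 8.56% of the mean), while p53 KO replicate 1 lay just under the lowest p53 WT library and the other two p53 KO libraries lay lower (SD 35.8% of the mean). The means were 7.14 ± 0.611 and 4.41 ± 1.58 CPM (SD, n = 3). By edgeR the log2 fold change was -0.68 (SE 0.26, 95% interval -1.25 to -0.11, adjusted p = 0.0739). The call turned on p53 KO replicate 1: without it the log2 fold change was -1.02 (adjusted p = 0.0148 by edgeR), and without p53 KO replicate 2 it was -0.46 (adjusted p = 0.226). With no filter on low counts the adjusted p by edgeR was 0.0411 at -0.69. The authors' deposited table gives 0.66 for p53 WT over p53 KO with an adjusted p of 0.192.

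Glucocorticoid and mineralocorticoid receptors share ligands and DNA sites, and their transcript ratio can be read within each library. NR3C1 over NR3C2, per length, was 6.70, 7.19 and 6.87 in p53 WT replicates 1 to 3 and 8.58, 21.4 and 10.0 in p53 KO replicates 1 to 3. All p53 KO ratios were above all p53 WT ratios (exact permutation test, two-sided, p = 0.1, the smallest that 3 against 3 libraries can give). The library p53 KO replicate 2, with the highest NR3C1 and the lowest NR3C2, stood far above the rest. The ratio uses the same NR3C2 values that already separated the groups, so it is not a separate observation.

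VDR, the receptor of active vitamin D, was the steadiest receptor in p53 KO. It had 25.4, 26.6 and 33.4 CPM in p53 WT replicates 1 to 3 and 27.2, 27.1 and 29.2 CPM in p53 KO replicates 1 to 3. All p53 KO values lay inside the p53 WT range. VDR thus had a log2 fold change of -0.03 (SE 0.13, 95% interval -0.32 to 0.26, adjusted p = 0.905 by edgeR), or between 0.802-fold and 1.20-fold.

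ESRRA, which drives genes of mitochondrial respiration together with PGC-1 coactivators, had 44.6, 44.3 and 40.9 CPM in p53 WT replicates 1 to 3 and 39.0, 42.4 and 50.9 CPM in p53 KO replicates 1 to 3. The p53 KO libraries spread to both sides of the p53 WT libraries. The log2 fold change was 0.02 (SE 0.12, 95% interval -0.24 to 0.28, adjusted p = 0.922 by edgeR), or between 0.847-fold and 1.22-fold. In GENCODE 29, 9.37% of the merged ESRRA exon bases are shared with TRMT112 on the opposite strand, and the strand setting of the authors' count is not given in the sources used here. The 95% intervals of ESRRA, NR3C1 and VDR all lay within 1.5-fold in either direction.

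ESRRG, a close relative of ESRRA found mainly in tissues of high oxidative demand, was near the limit of detection. It had 1, 12 and 9 counts in p53 WT replicates 1 to 3 and 20, 5 and 19 counts in p53 KO replicates 1 to 3, which is 0.0127 to 0.370 CPM and 0.122 to 0.952 CPM. The groups overlapped, and the log2 fold change of 1.301 had an interval from -1.31 to 3.91 (adjusted p = 0.493 by edgeR), so that neither direction can be read from it at this depth. Single libraries moved it widely, to 0.17 without p53 KO replicate 3, 0.67 without p53 WT replicate 1 and 2.17 without p53 WT replicate 3.

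ESR1, the receptor on which tamoxifen acts in breast tissue, was a low-count gene here. It had 44, 43 and 24 counts in p53 WT replicates 1 to 3 and 101, 42 and 12 counts in p53 KO replicates 1 to 3. In CPM these were 0.559, 0.639 and 0.987, and 1.36, 1.03 and 0.601, so that p53 KO replicate 3 lay inside the p53 WT range and the other two p53 KO libraries above it. The log2 fold change was 0.50 (SE 0.54, 95% interval -0.65 to 1.66, adjusted p = 0.560 by edgeR), and it was 0.21 without p53 KO replicate 1, 0.33 without p53 WT replicate 1 and 0.75 without p53 WT replicate 3 or p53 KO replicate 3.

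ESR2, the second estrogen receptor, was higher than ESR1 per length in 5 of 6 libraries. It had 1.65, 1.61 and 2.18 CPM in p53 WT replicates 1 to 3 and 1.32, 0.513 and 2.21 CPM in p53 KO replicates 1 to 3. The highest and the lowest value were both in p53 KO, with 44 counts in replicate 3 and 21 counts in replicate 2. The log2 fold change was -0.45 (SE 0.48, 95% interval -1.49 to 0.58, adjusted p = 0.556 by edgeR), and it was -0.06 without p53 KO replicate 2 and -0.93 without p53 KO replicate 3. In GENCODE 29, ESR2 shares 5.60% of its exon bases with AL161756.1 on the same strand, so reads there cannot be assigned to either by strand. Genes near ESR2 were also lower, with a median of -0.57 over the 50 nearest expressed genes, and with that local median taken off the value was 0.12 (adjusted p = 0.908 by edgeR). ESR2 over ESR1, per length, was 4.38, 3.73 and 3.28 in p53 WT replicates 1 to 3 and 1.44, 0.742 and 5.44 in p53 KO replicates 1 to 3. These ratios overlapped between the groups (exact permutation test, two-sided, p = 0.4, where the smallest possible p is 0.1), and they carry whatever the transgene adds to the ESR1 row.

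PGR, the progesterone receptor and a classical product of estrogen receptor activity, was detected in 3 libraries only, with 4 counts in p53 WT replicate 1, 2 in p53 KO replicate 1 and 4 in p53 KO replicate 3. The 0 counts of the other libraries allow up to 0.0446 and 0.123 CPM in p53 WT replicates 2 and 3 and up to 0.0733 CPM in p53 KO replicate 2, covering counting error only. In GENCODE 29, 5.27% of the PGR exon bases are shared with PGR-AS1 on the opposite strand. No difference was detectable at this depth.

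**Figure D3:**
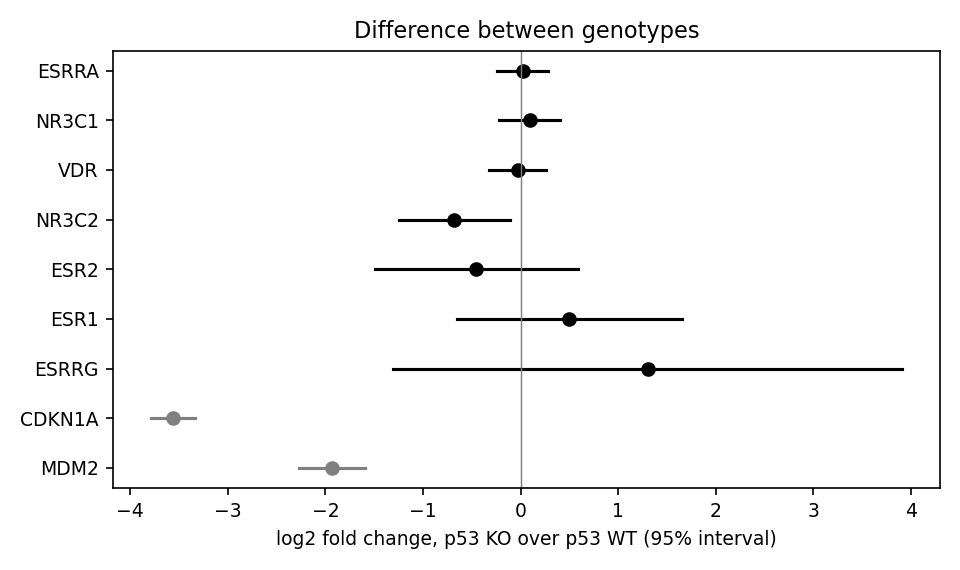
Log2 fold change of the 7 tested receptors (black) and of CDKN1A and MDM2 (grey), with 95% intervals from edgeR. The intervals of ESRRA, NR3C1 and VDR are narrow around 0, that of NR3C2 runs from -1.25 to -0.11, and those of ESR2, ESR1 and ESRRG are wide.

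For the 5 receptors with a mean of at least 1 CPM, the genes of most similar pattern were sought over the 6 libraries by the root mean square difference of centred log2 CPM among at least 11544 candidates. ESRRA was closest to UBB, a ubiquitin gene, and SH3GLB2 (differences of 0.014 and 0.024 on the log2 scale). NR3C1 was closest to CARD8 and SBF2 (0.049 and 0.058), and VDR to SIDT2 (0.043). NR3C2 was closest to FAM49A and ZNF133 (0.066 and 0.12). ESR2 was closest to CHN1 and MT-TI at 0.28 and 0.30. How close the best of so many candidates would lie without any link was not tested, so these matches are descriptions only.

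Among the other nuclear receptors, changes went both ways. Of 40 listed, 32 were tested, and 3 rose and 3 fell (18.8% against 26.5% of all genes, of which 12.1% were higher and 14.4% lower), with a median of 0.21. PPARD, a lipid-sensing receptor, rose from 63.3 ± 3.94 to 152 ± 3.45 CPM and NR4A1, an early-response orphan receptor, from 17.1 ± 2.06 to 50.03 ± 1.65 CPM (SD, n = 3). RARA, a retinoic acid receptor, fell from 52.3 ± 1.47 to 26.0 ± 0.939 CPM (SD, n = 3). ESRRB, the estrogen-related receptor beta, lies outside the rule for named genes and was added after its values were seen. Its log2 fold change was -0.76 (adjusted p = 0.279 by edgeR).

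Receptors that sense steroids at membranes were also measured. All 7 were tested, 2 rose and 1 fell (42.9% against 26.5% of all genes), with a median of -0.17. PGRMC1, a haem-binding progesterone receptor membrane component, rose from 117 ± 8.16 to 202 ± 11.5 CPM, and GPER1, a G protein-coupled receptor for estrogen, from 7.17 ± 0.721 to 14.5 ± 0.506 CPM (SD, n = 3). PAQR5, a membrane progestin receptor, fell from 17.1 to 11.6 CPM, with an adjusted p of 0.0277 by edgeR, and passed only without p53 KO replicate 2 when single libraries were dropped (adjusted p 0.0531 to 0.123 for the others). That these shares differ from those of the nuclear receptors was not tested.

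Of 24 coregulators, 23 were tested, 2 rose and 2 fell (17.4% against 26.5% of all genes), with a median of 0.03. NCOA2, a steroid receptor coactivator, rose from 22.0 ± 4.30 to 39.1 ± 11.3 CPM (SD, n = 3). Its paralog NCOA1 had a log2 fold change of -0.54, and PRMT1, an arginine methyltransferase, of 0.50, but with the local median of neighbouring genes taken off these were -0.17 and 0.27 (adjusted p = 0.410 and 0.148 by edgeR). Of 16 chaperones and cochaperones that serve steroid receptors, 7 rose and 2 fell (56.2% against 26.5% of all genes), with a median of 0.23. With the local median taken off, 8 rose and 0 fell, where 19.8% of all genes were called. PPID, the cyclophilin of receptor complexes, rose from 49.4 ± 3.50 to 83.2 ± 7.16 CPM, STIP1, which links HSP70 to HSP90, from 433 ± 19.7 to 613 ± 28.5 CPM, and HSP90AB1 from 2745 ± 104 to 3582 ± 124 CPM (SD, n = 3).

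**Figure D4:**
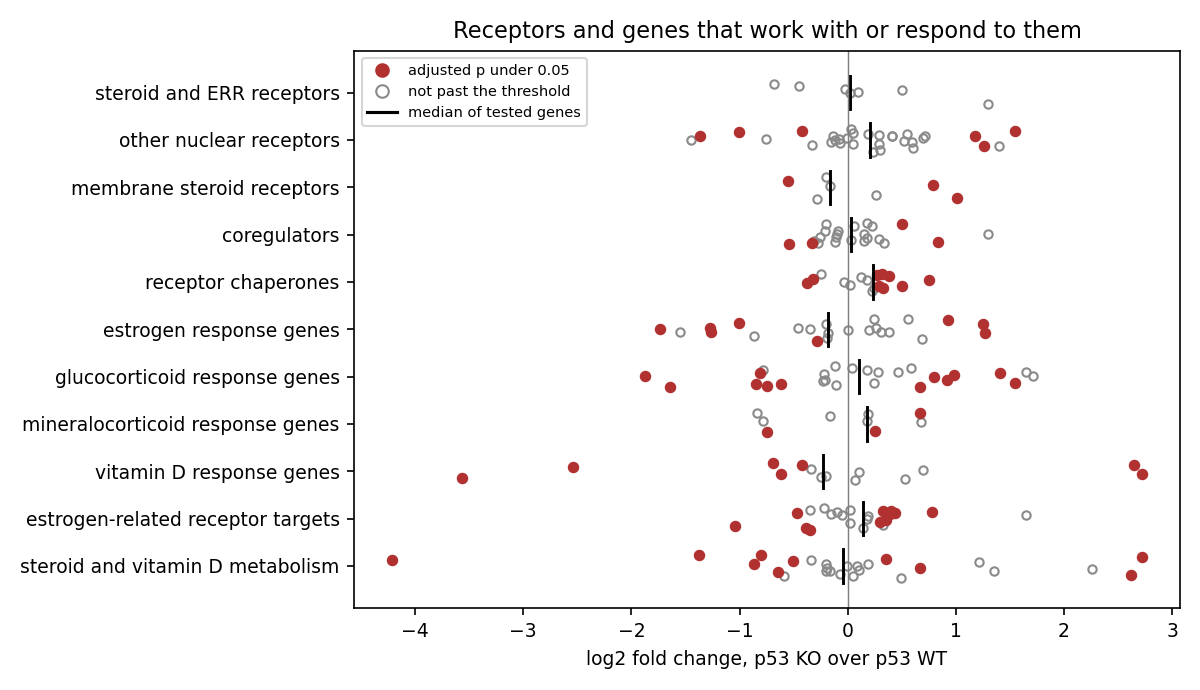
Log2 fold change of each tested gene, p53 KO over p53 WT, in the receptor set and the 10 lists of related genes; filled points passed an adjusted p of 0.05, open points did not, and vertical bars are medians. None of the 7 tested receptors passed, where 26.5% of all genes tested did. In the other lists, 17.4% (coregulators) to 56.2% (chaperones) of the tested genes passed. The vitamin D response list holds called genes at both ends, CDKN1A at -3.56 and CYP24A1 at 2.72.

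Genes known to respond to estrogens changed in both directions. Of 28 estrogen response genes, 23 were tested, 3 rose and 5 fell (34.8% against 26.5% of all genes), with a median of -0.18. SIAH2, a ubiquitin ligase, rose from 34.2 ± 4.37 to 82.4 ± 6.24 CPM, but genes near it were also higher, and its log2 fold change of 1.27 became 0.44 (adjusted p = 0.0165 by edgeR) with the local median taken off. CA12, a carbonic anhydrase, fell from 45.6 ± 4.01 to 18.9 ± 2.31 CPM (SD, n = 3), and RARA, given above, is also in this list. GREB1, a classical estrogen receptor target and cofactor named after its values were seen, had 22.0, 22.9 and 22.4 CPM in p53 WT replicates 1 to 3 and 6.47, 8.89 and 4.66 CPM in p53 KO replicates 1 to 3, a log2 fold change of -1.73 (SE 0.20). TFF1, an estrogen-induced secreted peptide of breast cells and also named after its values were seen, had 0 counts in all libraries.

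Of 30 glucocorticoid response genes, 26 were tested, 6 rose and 6 fell (46.2% against 26.5% of all genes), with a median of 0.11. MAOA, a monoamine oxidase, rose from 29.7 ± 0.597 to 58.6 ± 3.14 CPM, and DUSP1, a MAP kinase phosphatase, from 46.0 ± 4.81 to 87.1 ± 3.07 CPM (SD, n = 3). FKBP5, a widely used marker of glucocorticoid action, added with its value known, had a log2 fold change of 0.18 (adjusted p = 0.391 by edgeR).

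Of 12 mineralocorticoid response genes, 9 were tested, 2 rose and 1 fell (33.3% against 26.5% of all genes), with a median of 0.18. SGK1, the kinase through which aldosterone acts on sodium transport, fell from 25.6 ± 1.25 to 15.2 ± 1.44 CPM (SD, n = 3). PER1, a clock gene, had a log2 fold change of 0.67 but 0.49 with the local median taken off (adjusted p = 0.0642 by edgeR). Without p53 WT replicate 3 its adjusted p was 0.0530 by edgeR. Both SGK1 and PER1 are also in the glucocorticoid list, so neither is particular to the mineralocorticoid list.

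Vitamin D response genes also went both ways. Of 21 listed, 14 were tested, 2 rose and 5 fell (50% against 26.5% of all genes), and the median was -0.23. With the local median taken off, 2 rose and 3 fell, where 19.8% of all genes were called. CYP24A1, the hydroxylase that inactivates vitamin D and the most strongly VDR-induced gene in many cells, rose from 14.0 ± 3.00 to 91.8 ± 15.7 CPM, with a log2 fold change of 2.72 (SE 0.17) beside -0.03 for VDR. SPP1, osteopontin, fell from 64.7 ± 5.99 to 11.02 ± 3.23 CPM (SD, n = 3), and CDKN1A, given above as the readout of the knockout, is in the list as well, so the list is not free of p53 targets. RXRA, the DNA-binding partner of VDR, named after its values were seen, fell from 48.9 ± 0.245 to 36.4 ± 3.59 CPM (SD, n = 3), but its neighbours were also lower, and the log2 fold change of -0.42 became 0.13 (adjusted p = 0.510 by edgeR) with the local median taken off.

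Targets of the estrogen-related receptors are mostly mitochondrial enzymes. Of 24 listed, 23 were tested, 7 rose and 4 fell (47.8% against 26.5% of all genes), with a median of 0.14. With the local median taken off, however, 1 was higher and 0 were lower, where 19.8% of all genes were called. IDH3A, a subunit of isocitrate dehydrogenase, had a log2 fold change of 0.78 and 0.13 with the local median taken off (adjusted p = 0.461 by edgeR). CPT1B, a carnitine palmitoyltransferase, had -1.04 and then -0.45 (adjusted p = 0.0980), and ATP5A1, an ATP synthase subunit, had -0.38 and then 0.22 (adjusted p = 0.0999).

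Enzymes that make or remove the ligands were counted last. Of 39 genes of steroid and vitamin D metabolism, 26 were tested, 4 rose and 6 fell (38.5% against 26.5% of all genes), with a median of -0.04. HSD17B11, a hydroxysteroid dehydrogenase, rose from 27.9 ± 2.06 to 44.3 ± 1.49 CPM, and CYP2R1, a vitamin D hydroxylase, fell from 23.7 ± 1.79 to 13.6 ± 1.09 CPM (SD, n = 3). CYP27B1, which makes active vitamin D, had a log2 fold change of 0.10 (adjusted p = 0.771 by edgeR). AKR1C1, an enzyme that inactivates progesterone, fell from 2.03 ± 0.113 to 0.123 ± 0.112 CPM (SD, n = 3), and CYP27B1 and AKR1C1 were named after their values were seen.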

How the data were processed

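The authors deposited raw counts per gene symbol for 6 libraries (library totals 20393909 to 79767519), and 0 per-sample columns were left unused. The authors' deposited comparison table holds, for each gene, the mean normalised signal, the log2 fold change, the test score, raw and adjusted p-values, and a mark for a p53 cistrome. The fold change has the opposite sign to the score in all 35987 rows and is positive for CDKN1A, and was therefore taken as WT over KO. The tools named per the submitters' processing notes are HISAT2 2.1.0, fastp 0.21.0 and DESeq2 1.3.6, with build GRCh37 (hg19). How reads were assigned to genes, with which annotation and strand setting, is not given in the sources used here.

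Counts were tested with edgeR 4.0.16 (TMM, filterByExpr, robust quasi-likelihood F-test, Benjamini-Hochberg over 22352 genes, threshold 0.05). CPM uses the TMM factors; RPKM divides it by merged GENCODE 29 exon length. SE is the fold change over the root of F, and intervals are 95%. A count of 0 was taken to allow 3 counts. The alternatives were RLE and no composition factors, no filter, 1 CPM in 3 libraries, DESeq2 1.42.0, limma-voom (limma 3.58.1), a replicate block, the median of the 50 nearest expressed genes (mean of at least 1 CPM) in RefSeq order taken off, and each library left out. Groups came from titles. Named genes were CDKN1A and MDM2, the members, the 3 called genes of smallest adjusted p and at least 1 CPM in each list, and the 2 most similar genes per member among those of at least 5 CPM. A few genes covered by this rule are not reported here. Members, lists and settings were chosen with earlier results of these data known. The fits were tested on simulated data.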

Additional observations from a re-analysis of the deposited data

How the results depend on the processing

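The count of receptors past the threshold was 0 under most alternatives and 1 (NR3C2) with no filter on low counts, and it ranged from 0 to 1 when each library was left out in turn, the 1 coming without p53 KO replicate 1. The count over all genes ranged from 4160 to 6762 against 5924, within 1.5 times throughout. With the replicate number as a block 0 receptors and 5159 genes passed; the labels do not say that a number marks a shared culture, and deviations of same-numbered libraries correlated at 0.017, 0.034 and -0.029 across genes, so the numbers were not taken as pairs. The block changed no call among the genes named here. NR3C2 stayed negative in all 14 alternatives (-1.02 to -0.46), whereas the uncalled values of ESRRA, VDR, NR3C1 and ESR2 changed sign in 4, 2, 1 and 1 of theirs. The log2 fold change of ATP5A1 turned from -0.38 to 0.22 with the local median taken off (adjusted p = 0.0999 by edgeR). For ESR1, ESRRG and PGR the counts limit what can be seen. Leaving out a library leaves a group with 2 samples. The causes of these shifts were not tested.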
